A study of Homo sapiens with 2 samples.

Results

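RNA polymerase III, its template-binding factor TFIIIC and the La protein were followed here through 10 protein-coding genes: POLR3A, POLR3B, POLR3C, POLR3D and POLR3E, then GTF3C1, GTF3C2, GTF3C3 and GTF3C4, and SSB. They were taken by gene symbol among the 19994 protein-coding genes of a table of 61554 rows, and all 10 were found. The counts come from ribosome profiling, which sequences the RNA fragments that ribosomes shield from nuclease. The cultures were of HEK293T, a line from human embryonic kidney that is easily transfected, and each of the 2 gave 1 library. Both received a plasmid on which a CMV promoter drives TetRS, in the labels the chimeric pyrrolysyl-tRNA synthetase chPylRSIPYE. The same plasmid carried 12 U6 cassettes for the tRNA CM15CGA. TetBu was present in both. Only the library titled RiboW also had pEGFP-mCherry-T2A-EGFP-151TCG, a reporter with a TCG codon in EGFP, and RiboWo did not. Collection followed 30 h of expression and 1 min in 0.1 mg/mL cycloheximide.

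RNA polymerase III makes tRNAs, 5S rRNA, U6 and other short RNAs. At tRNA genes TFIIIC binds the internal A and B boxes and brings in TFIIIB, which recruits the polymerase, and La then binds the run of U at the end of the new transcript. A U6 promoter lies ahead of the transcribed part and is read through SNAPc and a TFIIIB form that holds BRF2. Both cultures carried the U6 cassettes, so the libraries compare the presence of the reporter plasmid and not that of the tRNA. How much tRNA was made is not known from these files. TetRS, which shares its plasmid with the cassettes, had 30286 counts in RiboW and 59723 in RiboWo. The dose of cassettes and the presence of the reporter thus cannot be told apart.

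RiboW held 2519301 counts and RiboWo 3151403, of which 346240 and 307768 fell on protein-coding genes. The reporter row had 271843 counts in RiboW and 399 in RiboWo, in the direction of the titles. The neuronal filament genes NEFL and NEFM, which HEK293 cells are known to express, had 106 and 56 counts with the reporter and 49 and 50 without it. INA and ENO2, the rest of that list of 4, were few, at 3 and 4 counts with the reporter and 7 and 6 without it. Markers of other cell types were few and lay mostly in the library without the reporter. The 6 leukocyte markers had 5 counts against 20, with PTPRC and CD3E at 0 in both, the 4 hepatocyte markers 1 against 25, with TTR at 0 in both, and the 5 fibroblast markers 17 against 55. Their part in the results below was not tested. With 1 library per group there is no test across replicates, and every difference is one between these libraries.

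The 10 genes together held 361 counts with the reporter and 344 without it. That was 0.104% of coding counts (exact Clopper-Pearson 95% interval 0.0938 to 0.116%) against 0.112% (0.100 to 0.124%). These intervals overlap. All intervals cover counting error only, take reads as independent and so may be too narrow, since reads copied by PCR are not independent molecules. Each ratio below is a log2 ratio of counts scaled by TMM, with the reporter over without it, minus 0.11, the median of the 1060 coding genes that reached 100 counts over both libraries. Zero therefore stands for the median coding gene. A gene was called where this ratio was at least 2-fold and its interval excluded 0. Only POLR3D, GTF3C1 and SSB reached 100 counts, at 114, 127 and 100, and POLR3B alone stayed under 20.

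**Figure D1:**
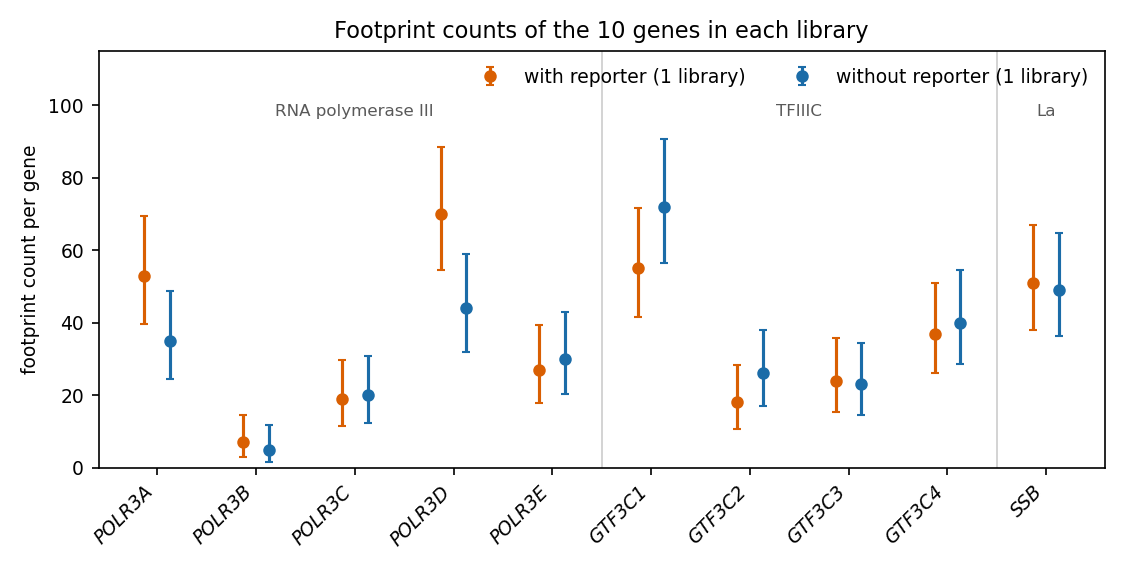
Footprint counts (vertical axis) of the 10 genes in the library with the reporter (orange) and without it (blue); points are single libraries and bars are exact Poisson 95% intervals. The bars of the 2 libraries overlap for every gene; POLR3D, at 70 against 44, and GTF3C1, at 55 against 72, lie on opposite sides.

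None of the 3 genes with at least 100 counts was called higher or lower. Among all 1060 such coding genes 1.79% were called higher and 1.32% lower, which is 19 and 14 genes. Without centring on the coding median that split was 30 and 6. At a summed count of at least 20, none of 9 members was called either, where 4.81% of 6296 coding genes were called higher and 8.05% lower. The interval alone lay below 0 for 1 of these 9, GTF3C1, where the background was 12.7%, and above 0 for none, where it was 8.91%. These shares are near the background. The median ratio of the 3 well-counted members was -0.19, where the quartiles of the 1060 coding genes were -0.28 and 0.31. Over the 9 it was -0.32, against -0.05 for the 6296 genes, and 7 of the 9 lay below 0, as did 53.6% of the 6296 genes.

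Depth set what could be seen. At the 127 counts of GTF3C1, a gene had to be 1.49-fold higher for its interval to leave out 0. At the 39 counts of POLR3C the ratio needed was 2.15-fold, and at the 12 counts of POLR3B it was 9.29-fold. Smaller differences were not detectable at this depth.

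The largest subunits, POLR3A and POLR3B, form the catalytic centre of the enzyme. POLR3A (chromosome 10, 77975149 to 78029515, minus strand) had 53 counts in RiboW and 35 in RiboWo. Its ratio was 0.35 (-0.29 to 1.01), a point value of 1.28-fold that counting error alone spans. With total counts and no centring it was 0.92 (0.28 to 1.58). POLR3B (chromosome 12, 106357748 to 106510198) had 7 and 5 counts, the fewest of the 10 genes, and its ratio of 0.24 (-1.63 to 2.24) carries almost no information. The pair sits in the enzyme in equal numbers, yet the deposited RPKM of POLR3A was 2.28 and 1.57 and that of POLR3B was 0.511 and 0.380. Their counting intervals did not overlap in either library, at 1.71 to 2.98 against 0.205 to 1.05 with the reporter and 1.09 to 2.18 against 0.123 to 0.886 without it.

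POLR3D and POLR3E form a subcomplex of the polymerase that is related to the general factor TFIIF. POLR3D had 70 counts in RiboW and 44 in RiboWo, the highest ratio of the 10 genes at 0.43 (-0.14 to 1.00). The count was higher with the reporter, but the interval held 0. Without centring it left out 0 with DESeq2 size factors, at 0.61 (0.05 to 1.19), and with total counts, at 0.99 (0.43 to 1.57). The microRNA gene MIR320A ends 90 bases ahead of POLR3D on the opposite strand and had 199 counts against 121. The listed spans of MIR320A and POLR3D share no base. No source used here states how strand was handled, and whether reads of one locus entered the other was not tested. POLR3E (chromosome 16, 22297375 to 22335101) had 27 counts and 30, with a ratio of -0.40 (-1.20 to 0.40). It lay on the other side of 0 from its partner, with intervals that overlap. POLR3C (chromosome 1, 145824088 to 145844402), of the subunit trio that acts in initiation, had 19 and 20 counts and a ratio of -0.32 (-1.30 to 0.66).

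POLR3E starts beside a tRNA gene, the kind of template that the polymerase transcribes. RefSeq places TRL-AAG2-4, a leucine tRNA gene, at chr16:22297140-22297221, ending 188 bases before the RefSeq start of POLR3E. Of 15842 coding genes with a RefSeq promoter entry, 23 (0.145%) have a tRNA gene ending within 500 bases before a start. The 250 bases before POLR3E, chr16:22297159-22297408 on the plus strand of GRCh38.p14, hold the end of that tRNA gene with its B box, the letters that TFIIIC binds. Capitals mark the letters GGTTCGA, the core of the B box.
POLR3E: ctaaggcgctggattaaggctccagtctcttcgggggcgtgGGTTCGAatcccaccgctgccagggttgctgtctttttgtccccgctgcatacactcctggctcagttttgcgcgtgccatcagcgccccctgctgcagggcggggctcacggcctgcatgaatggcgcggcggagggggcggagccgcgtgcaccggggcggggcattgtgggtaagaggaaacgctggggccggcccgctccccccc
Searched on both strands, these letters were in this window of 2 of the 9 members with an entry, POLR3E and GTF3C1, and of 1.01% of coding genes. In GTF3C1 they lay on the opposite strand with no RefSeq tRNA gene within 500 bases before the start. The footprint counts of POLR3E, 27 and 30, are those of its mRNA locus, and counts for the tRNA gene were not analysed here.

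The 4 TFIIIC genes all lay below 0. GTF3C1 encodes the largest subunit, which contacts the B box (chromosome 16, 27459555 to 27549913, minus strand). It had 55 counts in RiboW and 72 in RiboWo, a ratio of -0.63 (-1.17 to -0.11). Relative to the coding median it was the only one of the 10 genes whose interval left out 0, and it stayed short of 2-fold. Without centring the interval held 0, at -0.52 (-1.05 to 0.0058) with TMM, -0.45 (-0.98 to 0.08) with DESeq2 size factors and -0.07 (-0.60 to 0.46) with total counts. GTF3C2, its partner in the B box module (chromosome 2, 27325849 to 27356999, minus strand), had 18 counts against 26 and the lowest ratio, -0.77 (-1.73 to 0.15). GTF3C3, of the module that binds the A box and TFIIIB (chromosome 2, 196763035 to 196799725, minus strand), had 24 counts against 23, a ratio of -0.18 (-1.07 to 0.71). GTF3C4 (chromosome 9, 132670035 to 132694953), which has been described as a histone acetyltransferase, had 37 against 40, a ratio of -0.36 (-1.04 to 0.32). The antisense genes GTF3C2-AS1 and GTF3C2-AS2 overlap GTF3C2 and had 2 and 10 counts with the reporter and 0 and 10 without it. Reads within a stretch shared by a gene and its partner cannot be told apart without strand. The same holds for such reads where genes on the opposite strand overlap the ends of other members. RNF115 overlaps POLR3C and had 28 counts against 18, CCDC150 overlaps GTF3C3 and had 18 in each library, and DDX31 overlaps GTF3C4 and had 10 against 11. Only a small part of these spans is shared: RNF115 ends at 145824095, and the span of POLR3C begins at 145824088. CCDC150 ends at 196763490 and DDX31 at 132670401, where the spans of GTF3C3 and GTF3C4 begin at 196763035 and 132670035.

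SSB encodes La, the protein that holds the U-rich end of new polymerase III transcripts (chromosome 2, 169791933 to 169812064). Its counts were nearly equal, at 51 and 49, and its ratio was -0.19 (-0.78 to 0.41). The deposited RPKM was 3.51 in both libraries. The ends of SSB and of METTL5 on the opposite strand overlap, and METTL5 had 8 counts against 12.

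The letters CACGTG, the palindromic E-box that MYC and other factors bind, were in the same 250 bases of 5 of the 9 members with an entry (POLR3D was not searched) and of 9.73% of coding genes, counting a gene where any of its starts had them. The 5 span both complexes and La. The motif was chosen after the sequences were read, and a match is a description of these letters, not a site. It was found in members with ratios above 0 (POLR3A) and below it (POLR3C, GTF3C2, GTF3C4 and SSB). Capitals mark CACGTG, and each stretch reads 5′ to 3′ on the strand of the gene.
POLR3A: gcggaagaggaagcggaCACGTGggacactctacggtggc
POLR3C: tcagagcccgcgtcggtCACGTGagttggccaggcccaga
GTF3C2: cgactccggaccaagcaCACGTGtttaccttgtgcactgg
GTF3C4: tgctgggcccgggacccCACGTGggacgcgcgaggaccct
SSB: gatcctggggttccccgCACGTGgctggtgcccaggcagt
In GRCh38.p14 these lie at chr10:78029528-78029567 (minus), chr1:145823987-145824026 (plus), chr2:27356845-27356884 (minus), chr9:132669983-132670022 (plus) and chr2:169799188-169799227 (plus). The motif ends 30, 191, 98, 30 and 92 bases before a RefSeq start of the gene. For GTF3C2 and SSB that start lies inside the gene span given above, and so does the motif. The motifs of POLR3C, GTF3C2 and GTF3C4 also lie inside the spans of RNF115, GTF3C2-AS2 and DDX31, genes on the opposite strand. GGGCGG, on either strand, was in 6 of the 9 members and 62.1% of coding genes.

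**Figure D2:**
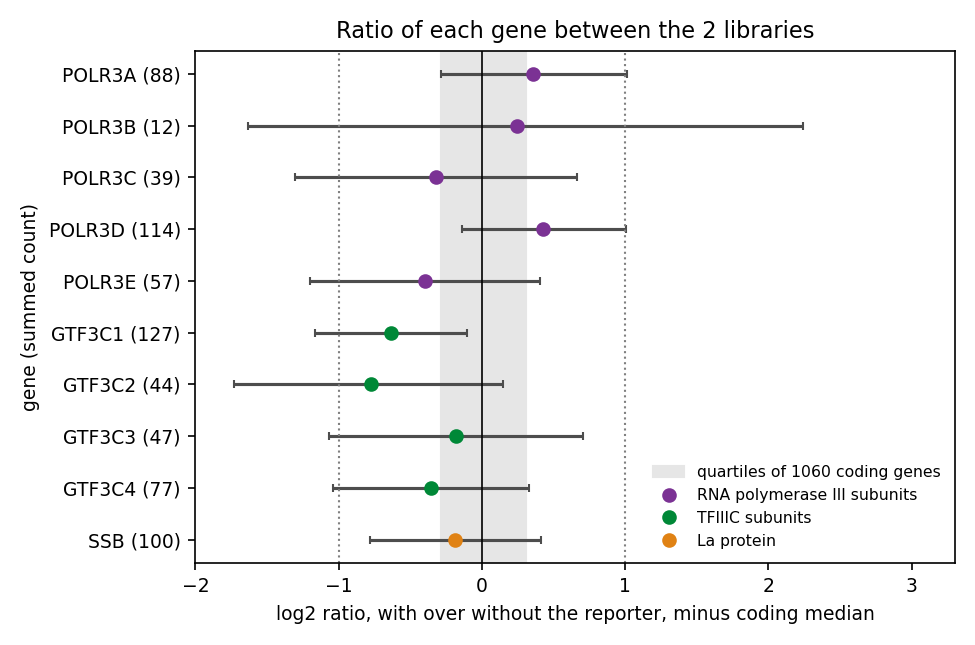
Log2 ratio of each gene, with over without the reporter, relative to the coding median (horizontal axis), with summed counts in brackets; bars are exact 95% counting intervals, the grey band runs between the quartiles of 1060 coding genes, and dotted lines mark 2-fold. The interval of GTF3C1, from -1.17 to -0.11, is the only one that leaves out 0.

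Pooled by complex, the 5 polymerase genes had 176 counts in RiboW and 134 in RiboWo. Set against all coding counts their log2 ratio was 0.22 (-0.11 to 0.56). The 4 TFIIIC genes had 134 counts against 161, a log2 ratio of -0.43 (-0.78 to -0.10). Without GTF3C1, its best counted gene, TFIIIC was at -0.34 (-0.80 to 0.11). Against all counts outside the plasmid rows, noncoding RNA included, TFIIIC was at 0.21 (-0.13 to 0.55), so its direction holds only relative to coding genes. All 10 genes together were at -0.10 (-0.32 to 0.12).

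The ratio of polymerase counts to TFIIIC counts needs no scaling between the libraries. It was 1.31 with the reporter and 0.832 without it, which is 1.58-fold higher with the reporter (exact conditional interval 1.13 to 2.20). This comparison was chosen after the values were seen. The log2 ratio was 0.66 (0.18 to 1.14) and ran from 0.50 to 0.78 as each of the 9 genes was left out in turn. The interval reached 0 without POLR3D, at 0.50 (-0.05 to 1.05), and without GTF3C1, at 0.57 (-0.0045 to 1.14). No 2 of the 10 genes, in 45 pairs, had ratio intervals that lay apart. Overlap does not show that the ratios of 2 genes are equal, and no pair was compared directly. The genes of a complex are not replicates, and an interval from pooled counts leaves out the spread from gene to gene, which had an SD of 0.46 over the 1060 coding genes. The polymerase to TFIIIC ratio also leaves out the other subunits. The 13 other polymerase subunits had 332 counts against 311, and GTF3C5 and GTF3C6 together 35 against 30. A ratio over all subunits was not computed.

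Per listed gene length, the members ranged widely. The deposited RPKM ran from 0.511 for POLR3B to 4.36 for POLR3D with the reporter, and from 0.380 for POLR3B to 3.51 for SSB without it. The order with the reporter was POLR3D, SSB, POLR3A, GTF3C1, GTF3C4, POLR3C, GTF3C3, GTF3C2, POLR3E and POLR3B. Without it the order was SSB, POLR3D, GTF3C1, GTF3C2, GTF3C4, POLR3A, POLR3C, POLR3E, GTF3C3 and POLR3B. Each neighbouring pair in either order had overlapping counting intervals, so only wider steps are resolved. SSB and POLR3D headed both lists, and POLR3B closed both. With the reporter the lower bound of POLR3D, 3.40, was above the upper bounds of the 8 genes other than SSB. All members but POLR3B were above the median of coding genes with a count, 0.589 and 0.587. Among all coding genes POLR3D was at percentile 94.9 and 92.6, SSB at 93.4 and 94.3, and POLR3B at 65.9 and 60.5. The listed lengths, 4690 to 11562 bases, are not stated to be coding lengths, and a long UTR lowers the RPKM of a footprint library.

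**Figure D3:**
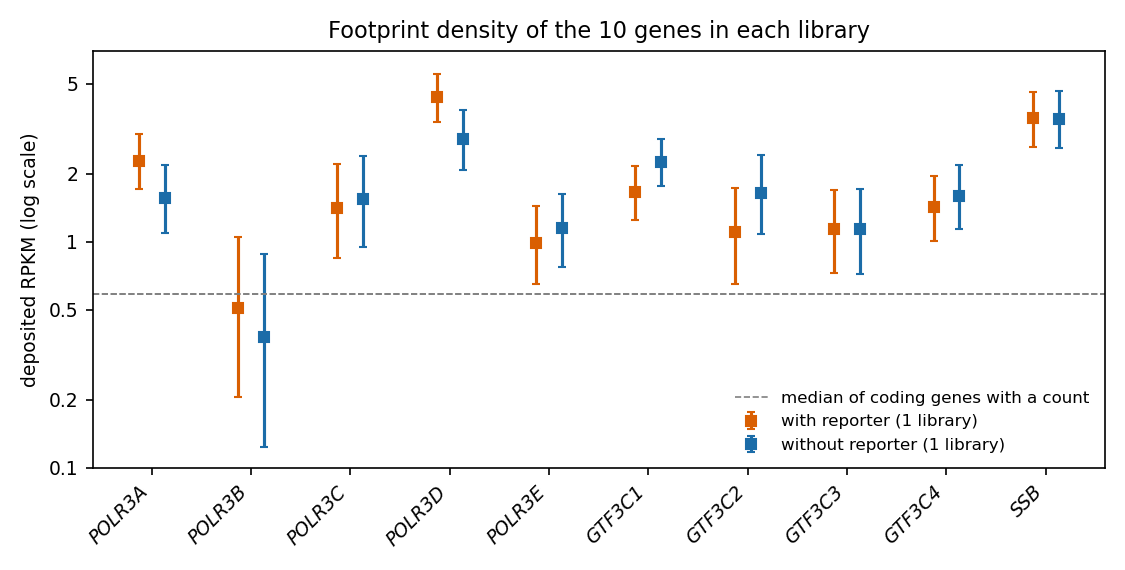
Deposited RPKM, reads per listed kilobase scaled by library size (vertical log axis), of the 10 genes with the reporter (orange) and without it (blue); points are single libraries, bars exact Poisson 95% intervals and dashed lines the medians of coding genes with a count, 0.589 and 0.587. POLR3D and SSB are highest and POLR3B is lowest in both libraries.

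The other genes of the pathway were sparse in the same way. Calls at a minimum of 20 counts are given for them too, an alternative added after seeing the data. At that minimum 4.81% of 6296 coding genes were called higher and 8.05% lower. With so few genes per list, the calls below cannot be told from that background. Of the 13 other polymerase III subunits, 2 reached 100 counts and none was called: POLR2L, shared by the nuclear polymerases, was at 0.25 (-0.24 to 0.75) and the shared POLR2E at 0.14 (-0.42 to 0.71). At a minimum of 20, 1 of 8 was called, the shared POLR2K, lower at -1.69 (-2.84 to -0.65) with 11 counts against 30. POLR3G, with only 4 against 12, was at -1.83 (-3.92 to -0.11). The 13 together had 332 counts against 311. Relative to coding counts that was -0.08 on the log2 scale (-0.30 to 0.15), where the 5 members were at 0.22. GTF3C5 and GTF3C6, the remaining TFIIIC subunits, had 19 and 16 counts with the reporter and 16 and 14 without it. Their ratios of 0.00 (-1.03 to 1.06) and -0.05 (-1.18 to 1.09) were nearer to 0 than those of the other 4 TFIIIC genes. Of 12 genes of TFIIIA, TFIIIB and SNAPc only GTF3A, which reads the 5S rRNA gene, reached 100 counts, at -0.05 (-0.46 to 0.36). At a minimum of 20, 2 of 6 were called, both lower: SNAPC4, of the SNAPc complex of U6 promoters, with 17 counts against 37 at -1.37 (-2.29 to -0.50), and the TFIIIB subunit BDP1 with 14 against 26 at -1.14 (-2.19 to -0.15). BRF2, of the TFIIIB form that serves U6 promoters, had 2 counts against 10 and a ratio of -2.57 (-5.80 to -0.34). It met the fold and interval of the rule but lay under both count minimums. Other genes of this list went the other way. POU2F1 had 38 counts against 20, at 0.68 (-0.14 to 1.54). SNAPC1, SNAPC2, SNAPC3 and ZNF143 also lay above 0, while TBP, BRF1 and SNAPC5 lay below it, each with 0 inside its interval. The 12 genes together had 281 counts against 265.

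Of the 7 regulators described, MYC, an activator, and PPP4C reached 100 counts, at 0.30 (-0.02 to 0.63) and 0.01 (-0.37 to 0.38), and neither was called. The repressor MAF1 had 30 counts against 20. Among 6 La-related proteins LARP1, which binds mRNAs of ribosomal proteins, was the only one with 100 counts, at -0.16 (-0.57 to 0.26). At a minimum of 20, 1 of 6 was called, LARP4, lower at -1.24 (-1.98 to -0.54). None of 13 genes of RNase P and tRNA end processing reached 100, and of 6 with at least 20 the RNase P subunit RPP30 was called higher, with 25 counts against 4 at 2.40 (0.87 to 4.38). RTCB, the tRNA ligase, was the only one of 12 splicing and export genes to reach 100 counts, at 0.53 (-0.05 to 1.12), and was not called. Of the polymerase I genes TAF1D was at -0.42 (-0.78 to -0.07) and RRN3 at -0.68 (-1.27 to -0.10), and for polymerase II POLR2A, the largest subunit, was at -0.36 (-0.66 to -0.07), none of them called. At a minimum of 20, 1 of 7 polymerase I genes was called, POLR1E, lower at -1.44 (-2.36 to -0.59). None was called at that minimum among 2 TFIIIC, 8 splicing and export and 11 polymerase II genes of the lists. Across the 10 described coding genes outside the 10 members that reached 100 counts, the median was -0.02. A listed gene that is not reported here is left out of this median.

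**Figure D4:**
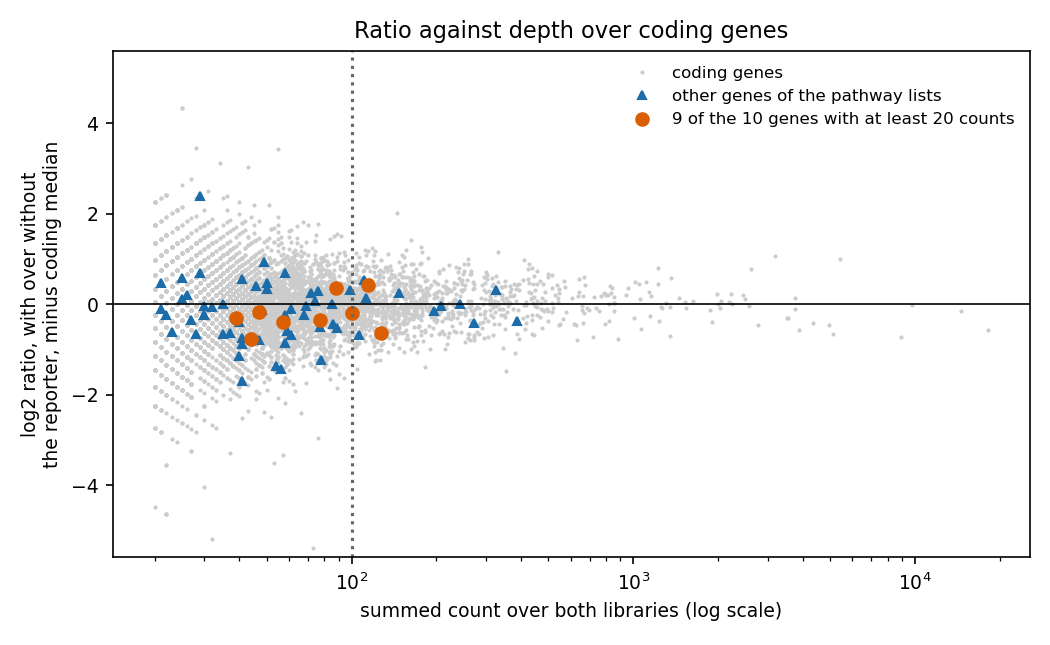
Log2 ratio, with over without the reporter, relative to the coding median (vertical axis) against summed count (horizontal log axis) for coding genes with at least 20 counts; genes at 0 in 1 library are not drawn. Orange circles are the 9 members with at least 20 counts, and the dotted line marks 100 counts. Blue triangles are the coding genes of the other lists, those of polymerases I and II included and cell type markers left out. The members, from -0.77 to 0.43, lie inside the cloud of coding genes at their depth.

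Products of the polymerase were counted far more than its genes, although such short RNAs are not translated. Of 19 symbols listed, 18 were in the table, and 8 rows had a count. RNY1, a Y RNA that La and Ro bind, had 51895 counts against 55441, a ratio of -0.34 (-0.36 to -0.32). The vault RNAs VTRNA1-2 and VTRNA1-1 had 886 against 1016 and 238 against 212, at -0.44 (-0.57 to -0.31) and -0.08 (-0.35 to 0.20). RNY4 had 125 against 147, at -0.48 (-0.83 to -0.12). None of these 4 was called, and all lay below 0. VTRNA1-3, another vault RNA with fewer than 100 counts, went the other way, with 60 against 25 at 1.02 (0.32 to 1.75), which passes the rule at a minimum of 20. The median coding gene was itself at 0.57 with total counts and no centring. On that scale RNY1, VTRNA1-2, VTRNA1-1 and RNY4 lie above 0, so their sign depends on the scaling. RNU6-1, one of several U6 genes, had 22 counts and 15, a ratio of 0.31 (-0.70 to 1.36). RN7SK, RMRP and RPPH1 were listed at 0 in both libraries, where a count of 0 allows up to 3.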

How the data were processed

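The deposited table holds whole-number counts per gene for RiboW and RiboWo, and a second table the RPKM values of the authors, per listed gene length, with the library size unstated in the file headers. Submitters' processing notes list TopHat2 2.0.12, HTSeq 0.9.1 and the builds GRCh37 and hg19, with no role or order, and strand and multi-match handling are not given in the sources used here. Coordinates are those of the files. They fit GRCh38, since all 10 members overlapped their RefSeq GRCh38.p14 locus and 5 shared its 5′ end to the base.

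Counts were scaled with edgeR 4.0.16 (TMM, all rows) in R 4.3.3. Ratios have exact Clopper-Pearson 95% intervals that take scaling and the coding median as fixed. RPKM intervals are exact Poisson intervals of the counts. Python 3.11.15 with scipy 1.17.1 was used. The steps were tested on independent Poisson counts, simulated for coding genes with at least 100 summed counts. That test did not cover lower counts or reads that are not independent. No p-value is given. The settings varied were the scaling (total counts, or size factors of DESeq2 1.42.0), the count minimum, RPKM plus 0.1, thinning, a fold of 1.5 and the denominator. Members and lists were chosen with earlier results of these data known. From each list the highest and lowest gene with at least 100 counts and any called gene were named. A further listed gene is not reported here. From the noncoding list the 4 most counted were named. BRF2, MAF1, GTF3C5, GTF3C6, POLR3G, RNU6-1, the products at 0 and the genes called only at a minimum of 20 counts were added after their values were seen. So were INA, ENO2 and the uncalled genes of TFIIIA, TFIIIB and SNAPc under 100 counts. Motifs were searched in the 250 bases before each RefSeq start of 9 members. The promoter of POLR3D was not analysed here.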

Additional observations from a re-analysis of the deposited data

How the results depend on the processing

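No alternative run called any member at 2-fold, and the ratios of all 10 members kept within their main interval except GTF3C1, at -0.07 under total counts. Which intervals leave out 0 differed by setting. It was GTF3C1 in the main setting and at a minimum of 20, GTF3C1 and GTF3C2 after thinning, POLR3D with DESeq2 size factors, and POLR3A and POLR3D with total counts. It was none at a minimum of 1 or with TMM not centred. At 1.5-fold 1 member, GTF3C1, was called lower, beside 111 of 1060 coding genes. Under total counts without centring the median of the 3 well-counted members was 0.38. Against all counts outside the plasmid rows the pooled log2 ratio was 0.87 for polymerase III, 0.21 for TFIIIC (reversed), 0.54 for SSB and 0.55 for all 10 genes, since coding genes took a larger share with the reporter. TFIIIC without GTF3C1 was at -0.34, with 0 inside its interval. The polymerase to TFIIIC log2 ratio, chosen after seeing the data, was 0.50 without POLR3D and 0.57 without GTF3C1, both with 0 inside. Coding genes called higher and lower were 19 and 14 in the main setting, 30 and 6 without centring, 46 and 6 with DESeq2, 190 and 0 with total counts, and 343 and 468 of 6296 at a minimum of 20 centred on their own median. At a minimum of 1 they were 705 and 740 of 14017. Levels per codon were not run, because protein sequences were not used here. No paired analysis was possible because each group had 1 library. Depth limits these values: 7 of the 10 genes had fewer than 100 counts.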
